A study of Capra hircus with 72 samples.

Results

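The genes described here encode potassium channels: the pore-forming subunits and the accessory subunits whose symbols begin with KCN. A gene was taken by its name alone, when KCN was followed by A, B, C, D, E, F, G, H, J, K, M, N, Q, S, T, U or V, with 6 such genes (KCNJ8, KCNJ10, KCNJ16, KCNK3, KCNK5 and KCNK9) left out. This gave 76 of the 21343 protein-coding genes in the deposited table. No expression value entered the choice. RNA came from female goats (Capra hircus) with no genetic change named in the labels. Room air animals breathed normal air over 14 days. Mild chronic hypercapnia, a lasting excess of carbon dioxide, was 14 days at 6% CO2, and moderate hypercapnia was 7 days at 6% followed by 7 days at 8%. Each condition had 4 brain regions: a cortical one, the medial prefrontal cortex (mPFC), and 3 of the brainstem with roles in breathing control, namely the solitary tract nucleus (NTS), the column of ventral respiratory neurons (VRC) and the CO2-sensing retrotrapezoid nucleus (RTN). The 12 groups of region and condition held 6 libraries each, 72 in all, of 12.84 to 31.88 M counts. The series text gives 6 animals per condition, so the 4 regions can share animals, but the labels do not tie a replicate number to an animal, and the p-values below measure the spread between libraries taken as independent.

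Potassium channels let potassium leave or enter a cell, which sets the resting potential, ends action potentials and limits how fast a neuron fires. Voltage-gated channels (KCNA, KCNB, KCNC, KCND, KCNH, KCNQ) open on depolarization, inward rectifiers (KCNJ) and leak channels (KCNK) hold the membrane near rest, and the KCNM, KCNN and KCNT channels open with intracellular calcium or sodium. Several families hold subunits that make no current alone and modify a partner (KCNAB, KCNE, KCNF, KCNG, KCNS, KCNV, KCNMB). In chemosensitive brainstem neurons, closing of potassium channels by acid is among the known ways in which CO2 changes firing.

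In room air the channel genes were, as a group of measured levels, most abundant in the cortex. The summed level of the 76 genes, in RPKM (reads scaled to gene length and library size, comparable between genes), was 1391 ± 160 (SD, n = 6) in mPFC. It was 531 ± 60.9 in NTS, 473 ± 34.7 in VRC and 530 ± 22.9 in RTN. The lowest cortical library, at 1157 RPKM, lay above the highest NTS library, at 622. Of the 76 genes, 55 had a mean of at least 1 RPKM in mPFC, 50 in NTS, 47 in RTN and 43 in VRC.

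Differences between regions were tested on counts with edgeR's quasi-likelihood test, and a gene was called at an adjusted p (Benjamini-Hochberg, over all genes tested) under 0.05. The low-count filter kept 64 of the 76 genes, and 55 of these 64 differed among the 4 regions in room air, where 69.2% of all 15700 genes tested did. Of those 55, 34 were highest in mPFC (61.8%), against 41.4% of all genes called. VRC and RTN each held the highest level of 8 of these genes (14.5%, against 27.8% and 14.8% of all genes called) and NTS of 5 (9.09%, against 16.0%). VRC had the lowest level of 22, against 10 in mPFC, 11 in NTS and 12 in RTN. The matching shares of all genes called were not computed. The 12 genes removed by the filter were KCNA7, KCNA10, KCNE2, KCNE5, KCNG3, KCNJ1, KCNJ15, KCNK16, KCNK18, KCNS1, KCNU1 and KCNV2, and KCNA7 had no count in any room air library. Among the 9 tested genes not called among regions were KCNA6, KCNE3, KCNK6, KCNK7, KCNK10, KCNMB1, KCNMB3 and KCNQ1.

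**Figure D1:**
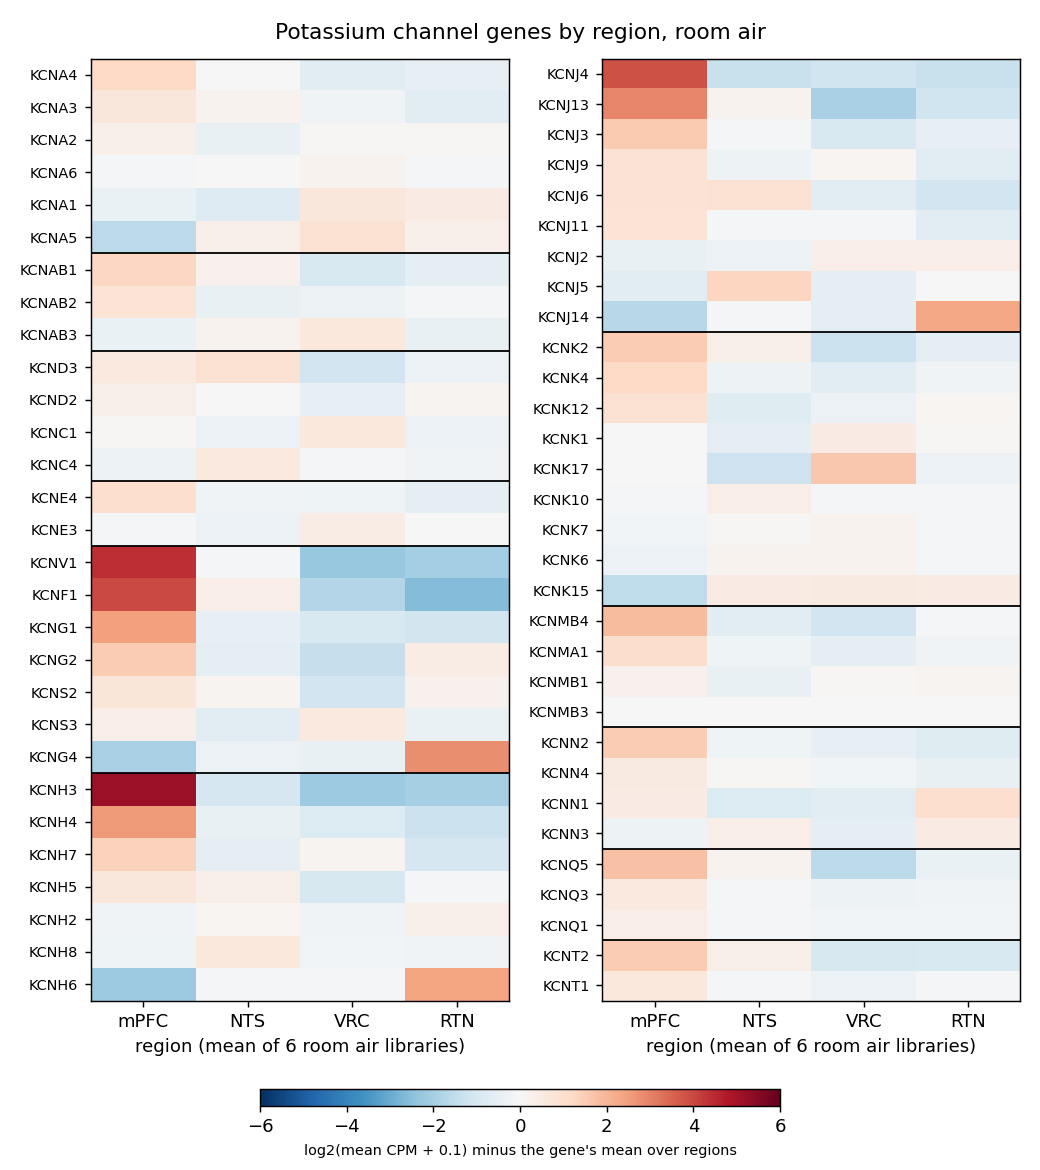
Mean level of 60 of the 64 tested potassium channel genes in the 4 regions in room air, as log2(mean CPM + 0.1) minus the mean of that gene over regions (red higher, blue lower, n = 6 libraries per region); black lines separate families. Red fills most of the mPFC column, with KCNH3, KCNV1, KCNF1 and KCNJ4 deepest, while KCNJ14, KCNG4 and KCNH6 are red in RTN.

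Against mPFC, 46 channel genes differed in NTS (11 higher, 35 lower), where 48.3% of all genes did. In VRC 48 differed (12 higher, 36 lower), against a background of 60.3%, and in RTN 42 (10 higher, 32 lower), against 54.8%. The median log2 fold change of the 64 genes was -0.73 in NTS, -0.90 in VRC and -0.74 in RTN, while the median of all genes was 0.02, -0.01 and 0.02. A set of 28 channel genes was lower than mPFC in all 3 brainstem regions (43.8% of the 64, against 18.1% of all genes tested). Only 5 were higher in all 3, KCNA5, KCNG4, KCNH6, KCNJ14 and KCNK15 (7.81%, against 16.8% of all genes). These are counts beside a background, with no test of the list.

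Levels of a gene in single libraries are given in CPM, counts scaled to library size, and group means in RPKM or CPM. The samples are bulk tissue, so fewer cells of a type and less RNA per cell cannot be told apart. The cell makeup of the regions differed as measured by marker genes. The summed level of the 9 myelin genes measured, of 11 listed, was 4008 CPM in mPFC, 16846 in NTS, 26795 in RTN and 44902 in VRC. A list of 7 markers of cortical glutamatergic neurons summed to 1095 CPM in mPFC (753 to 1503) and to 12.8 to 61.0 in the brainstem regions. The 10 general neuronal markers summed to 10084 CPM in mPFC, 11383 in NTS, 12861 in VRC and 26749 in RTN, but 6 of the 10 were lower than mPFC in each brainstem region, with a median log2 fold change of -0.19 in NTS, -0.38 in VRC and -0.53 in RTN. The part of cell makeup in the regional differences was not tested.

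KCNH3 and the silent subunits KCNF1 and KCNV1 were among the genes with large cortical excesses. KCNH3 (ENSCHIG00000013580, chromosome 5), a voltage-gated channel of the ether-a-go-go family, stood at 50.7 ± 7.8 RPKM in mPFC and at 0.67 ± 0.16 in NTS, 0.265 ± 0.23 in VRC and 0.297 ± 0.11 in RTN. Its 6 cortical libraries held 126, 164 and 199 CPM (lowest, median, highest). The highest of the 18 brainstem libraries in room air held 2.83 CPM, so the groups lay far apart, with log2 fold changes against mPFC of -6.23 ± 0.33 (SE) in NTS, -7.44 ± 0.36 in VRC and -7.25 ± 0.36 in RTN (adjusted p = 1.7e-13, 2.2e-14 and 3.4e-14).

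KCNF1 (ENSCHIG00000012739, chromosome 11) makes no current of its own and joins KCNB subunits. It was at 153, 248 and 329 CPM in mPFC (lowest, median, highest) and at 10.2, 22.8 and 26.3 CPM in NTS. In VRC the values were 3.69, 4.18 and 6.60 CPM, and in RTN 1.64, 2.26 and 3.98. The 4 regions thus fell in a graded order in which only VRC and RTN overlapped. Each step was called: NTS was below mPFC by 3.57 ± 0.22 on the log2 scale, VRC was below NTS by 2.15 ± 0.22, and RTN was below VRC by 0.87 ± 0.24 (edgeR adjusted p = 3.3e-12, 4.2e-07 and 0.017).

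KCNV1 (ENSCHIG00000023606, chromosome 14), another silent partner of KCNB channels, showed the same first step: 131, 173 and 210 CPM in mPFC against 1.62, 5.91 and 13.8 in NTS. VRC (0.751 to 3.26 CPM) and RTN (1.06 to 2.70 CPM) lay below NTS, with ranges that overlapped it. The difference was called for both (log2 2.15 ± 0.39 for NTS over VRC, and -1.94 ± 0.38 for RTN against NTS), but VRC and RTN did not differ from each other beyond their spread. KCNG1, of the same silent class, was at 168 ± 51 RPKM in mPFC and at 13.1 to 21.8 RPKM in the brainstem regions.

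Summed over the 10 genes of the silent class (KCNF, KCNG, KCNS and KCNV), the level was 441 RPKM in mPFC, 55.3 in NTS, 38.5 in VRC and 37.0 in RTN, the widest gap in RPKM of any family. Not every silent subunit had this pattern. KCNS3, which also partners KCNB channels, was at 16.0 ± 1.9 RPKM in VRC and 14.9 ± 2.9 in mPFC, and lower in NTS (7.35 ± 1.9) and RTN (7.91 ± 1.5). KCNS2 was lowest in VRC (2.17 ± 0.35 RPKM, against 5.87 to 8.60 elsewhere).

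The KCNAB genes encode cytoplasmic beta subunits of KCNA channels. KCNAB2 had the highest RPKM of all 76 genes in mPFC, 196 ± 27, and stood at 80.2 ± 15 in NTS, 82.3 ± 14 in VRC and 99.0 ± 16 in RTN. KCNAB1 was at 119 ± 14 RPKM in mPFC, 61.1 ± 37 in NTS, 32.3 ± 8.9 in RTN and 25.1 ± 6.2 in VRC. KCNAB3 went the other way, with 12.2 ± 2.1 RPKM in VRC and 6.48 ± 1.3 in mPFC (log2 1.02 ± 0.20, adjusted p = 0.00013), and 13.4 to 20.1 CPM in VRC against 6.02 to 10.5 in mPFC, without overlap.

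KCNMB4 (ENSCHIG00000008910, chromosome 5) is the brain beta subunit of the BK channel, a large-conductance channel opened by calcium and voltage, and slows its gating. It was at 67.8, 76.2 and 97.2 CPM in mPFC (lowest, median, highest), and at 14.2, 18.8 and 27.5 in RTN. NTS held 6.20, 13.4 and 19.1 CPM and VRC 5.19, 8.79 and 17.1. Each brainstem region lay below the cortex without overlap (log2 -1.92 ± 0.27 in RTN, -2.60 ± 0.27 in NTS and -3.01 ± 0.28 in VRC). Within the brainstem RTN exceeded VRC (log2 1.09 ± 0.27, edgeR adjusted p = 0.0069), while RTN against NTS and NTS against VRC were not called. KCNMA1, the pore of the BK channel, was likewise highest in mPFC, at 13.3 ± 2.1 RPKM against 3.91 to 5.39 RPKM in the brainstem. KCNMB1 and KCNMB3, other beta subunits of that channel, did not differ among regions.

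The inward rectifiers split. KCNJ4 (ENSCHIG00000008292, chromosome 5), a classical inward rectifier of forebrain neurons, was at 1.42, 2.33 and 6.48 CPM in mPFC and had no count in any of the 6 NTS and 6 RTN libraries in room air. Against a floor of 3 counts over a group it was at least 145-fold lower in NTS and at least 130-fold lower in RTN than in mPFC. In VRC 1 read was counted in all, a ratio of 370 with a counting interval of 66.0 to 14661 (exact binomial, counting error only). KCNJ3 and KCNJ9, subunits of the channels opened by G proteins, were highest in mPFC too, at 15.2 ± 1.8 and 4.84 ± 1.4 RPKM, against 2.54 to 4.69 and 1.53 to 2.64 in the brainstem. KCNJ6, a further subunit of these channels, stood at 2.21 ± 1.1 RPKM in NTS and 2.10 ± 0.39 in mPFC, a difference that was not called (edgeR adjusted p = 0.89), and at 0.651 ± 0.38 in VRC and 0.435 ± 0.085 in RTN.

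KCNJ14 (ENSCHIG00000025744, chromosome 18), an inward rectifier known from motor nuclei of the brainstem, led the genes that were highest in RTN. It held 60.4, 83.5 and 102 CPM in RTN (lowest, median, highest), 12.1, 16.4 and 21.1 in NTS, 7.98, 10.6 and 16.6 in VRC and 3.48, 5.14 and 8.54 in mPFC. No library of another region reached the lowest RTN library. The log2 difference of RTN was 2.93 ± 0.22 from VRC, 2.41 ± 0.21 from NTS and 4.00 ± 0.23 from mPFC (edgeR adjusted p = 1.4e-08, 3.5e-08 and 4.7e-13). RTN also lay above all other room air libraries for KCNG4, a silent subunit (2.23 to 8.85 CPM in RTN, at most 1.68 elsewhere), and KCNH6, a channel of the ether-a-go-go related group (4.34 to 8.45 CPM in RTN, at most 3.12 elsewhere). KCNN1, a calcium-activated channel of small conductance that shapes the pause after a spike, was at 7.67 ± 1.3 RPKM in RTN, 5.83 ± 0.92 in mPFC, 2.43 ± 0.28 in VRC and 2.32 ± 0.32 in NTS (RTN against VRC log2 1.68 ± 0.14).

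Markers of motor neurons were also highest in RTN, as KCNJ14, KCNG4 and KCNH6 were. The summed level of the 6 listed genes (CHAT, SLC18A3, SLC5A7, ISL1, MNX1 and PRPH) was 1038 to 1841 CPM in the RTN libraries in room air, 40.9 to 1577 in NTS, 19.0 to 310 in VRC and 2.55 to 20.8 in mPFC. In NTS replicate 5, where that sum was 1577 CPM, KCNG4 stood at 1.68 CPM and KCNH6 at 2.25, the highest of the 6 NTS libraries for both. The highest KCNH6 level outside RTN was in VRC replicate 6, at 3.12 CPM, in a group where that sum was at most 310 CPM. The part of motor neuron RNA in the RTN values was not tested.

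**Figure D2:**
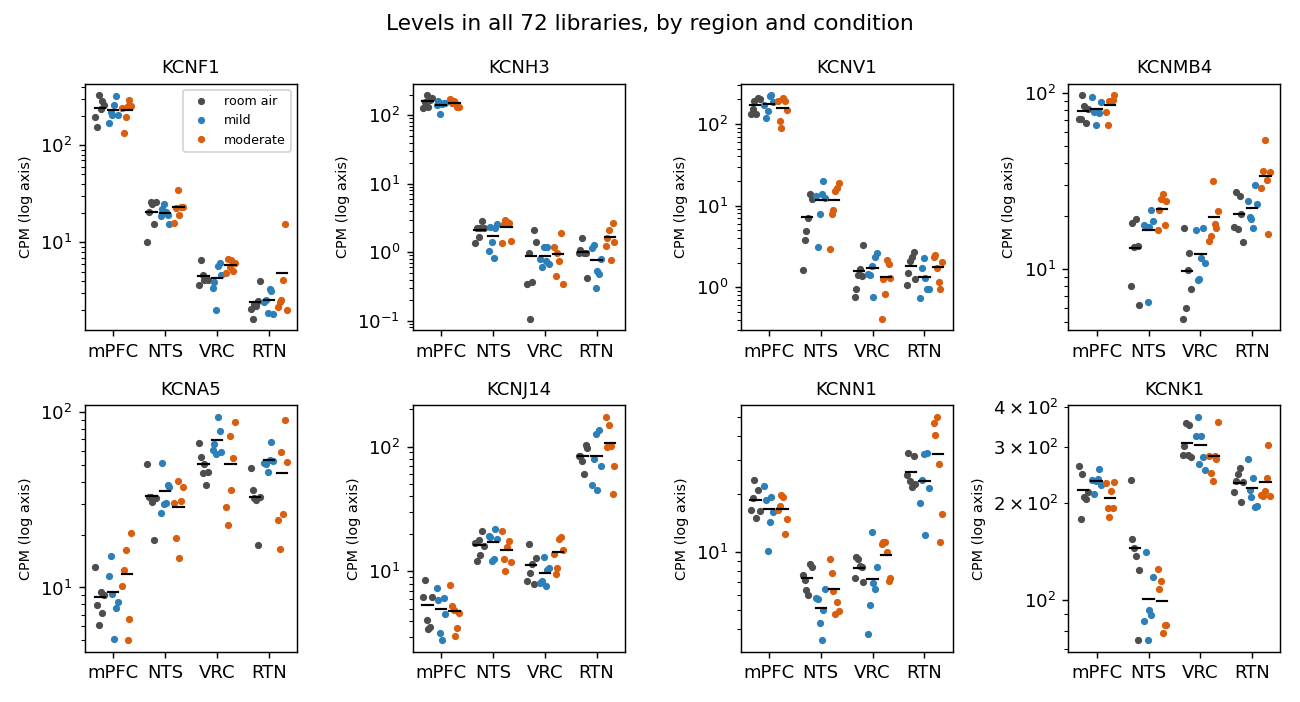
CPM, counts scaled to library size (log axis), of 8 channel genes in each of the 72 libraries, by region and condition; each point is a library and bars mark group means (n = 6). KCNF1, KCNH3, KCNV1 and KCNMB4 are highest in mPFC under all 3 conditions, KCNJ14 in RTN, and KCNA5 lies above mPFC in the 3 brainstem regions by its group means.

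KCNA5, a delayed rectifier, was one of the 5 genes that were higher in all 3 brainstem regions: 6.11, 8.52 and 13.1 CPM in mPFC against 38.2, 48.1 and 66.2 in VRC. NTS (18.6 to 50.7 CPM) and RTN (17.4 to 47.7) also lay above every cortical library. The log2 differences from mPFC were 2.52 ± 0.23 in VRC, 1.94 ± 0.23 in RTN and 1.90 ± 0.23 in NTS. KCNK15, a member of the leak channel family picked out after its values were seen, was low throughout, at 0.128 ± 0.12 RPKM in mPFC and 0.807 to 0.868 in the brainstem regions, with ranges that overlapped the cortex. Other KCNA genes had other orders. KCNA4, an inactivating (A-type) channel, was at 15.4 ± 1.0 RPKM in mPFC and 4.02 to 6.66 in the brainstem. KCNA1, a low-threshold channel of axons, was highest in VRC and RTN (6.98 ± 1.9 and 6.16 ± 1.2 RPKM, against 3.52 ± 1.1 in mPFC and 2.66 ± 1.5 in NTS), and KCNA6 stood at 34.1 to 42.9 RPKM in all 4.

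VRC also led in KCNK1, a weak leak channel and the best expressed KCNK gene. It was at 280, 294 and 357 CPM in VRC, 203, 234 and 258 in RTN, 178, 213 and 262 in mPFC, and 74.5, 141 and 236 in NTS. NTS spread over a 3-fold range, wider than the other regions. KCNK1 was higher in VRC than in NTS (log2 fold change -1.11 ± 0.17 for NTS against VRC, edgeR adjusted p = 3.3e-05) and than in mPFC (0.51 ± 0.17, 0.013). The fast delayed rectifier KCNC1 was highest in VRC as well, at 23.0 ± 6.8 RPKM against 11.9 to 16.9 elsewhere. The mechanically and heat gated leak channels KCNK2 and KCNK4 were cortical, at 17.8 ± 6.4 and 22.4 ± 3.4 RPKM in mPFC, and 2.26 ± 0.43 and 5.79 ± 1.3 in VRC.

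NTS held few maxima. KCNC4, a fast inactivating channel, was at 31.5 to 56.0 CPM in NTS against 18.1 to 32.9 in mPFC (log2 0.91 ± 0.15, edgeR adjusted p = 2.2e-05). KCNJ5, a subunit of the G protein gated rectifier, was called higher in NTS than in mPFC and VRC (log2 2.14 ± 0.70 and 2.00 ± 0.69), but its 6 NTS values ran from 0.308 to 5.69 CPM. Without NTS replicate 5 neither call held (adjusted p = 0.063 and 0.12). The call against VRC was also lost without NTS replicate 6 or without VRC replicate 1, 2, 3 or 5, with adjusted p of 0.053 to 0.077.

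The M-current and sodium-activated channels were cortical in order, with smaller steps. KCNQ3, a subunit of the M-current that restrains repeated firing, was at 10.4 ± 1.6 RPKM in mPFC and 5.16 ± 0.67 in VRC. KCNT1, opened by sodium, was at 19.6 ± 2.3 RPKM in mPFC and 9.36 to 11.8 in the brainstem. KCNT2 of the same family was at 5.51 ± 0.53 RPKM in mPFC, 2.39 ± 0.67 in NTS and 0.906 ± 0.21 and 0.892 ± 0.21 in RTN and VRC.

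Within the brainstem the regions differed less. NTS and VRC differed in 28 channel genes (18 higher in NTS, 10 lower), against 33.0% of all genes tested, RTN and NTS in 24 (11 higher in RTN, 13 lower; 21.6% of all genes), and RTN and VRC in 20 (12 higher in RTN, 8 lower; 14.7% of all genes). As shares of the 64 genes tested these counts are 43.8%, 37.5% and 31.2%.

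A list of 24 genes whose products bind or act beside these channels was read in the same fits, 22 of them tested. Against mPFC, 3 of these 22 were called higher and 9 lower in NTS, 5 and 14 in VRC, and 4 and 14 in RTN. Of all genes tested, 23.7% were higher and 24.5% lower in NTS, 29.4% and 30.9% in VRC, and 27.9% and 26.9% in RTN. The partner list was not tested as a set. KCNIP3, a calcium sensor that binds KCND channels, was lower by 3.73 ± 0.22 in NTS, 3.59 ± 0.22 in VRC and 3.86 ± 0.23 in RTN on the log2 scale, and KCNIP2 by 1.53 ± 0.13, 2.21 ± 0.14 and 2.04 ± 0.13. LRRC55, a gamma subunit of BK channels, fell by 1.17 ± 0.38, 3.53 ± 0.44 and 2.83 ± 0.41 in the same order. HCN2, a pacemaker channel that carries an inward current, was higher in all 3 regions, by log2 1.10 ± 0.30 in NTS, 2.05 ± 0.30 in VRC and 1.63 ± 0.30 in RTN.

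The regional pattern was read again in the mild and moderate libraries, which the room air fit did not use. Among the 4 regions 53 channel genes were called in mild (70.6% of all genes) and 57 in moderate hypercapnia (66.1%), and 50 were called under all 3 conditions. Of the 46 genes called between NTS and mPFC in room air, 39 were called with the same sign in mild and 37 in moderate. The same held for 42 and 42 of the 48 called between VRC and mPFC, and for 37 and 38 of the 42 called between RTN and mPFC. Within the brainstem fewer repeated: 24 and 19 of 28 for NTS against VRC, 18 and 19 of 24 for RTN against NTS, and 16 and 13 of 20 for RTN against VRC. None was called with the opposite sign. How often all genes repeated was not computed, so these counts cannot be read as particular to the channel genes. KCNJ14 stayed above VRC in RTN by log2 3.13 in mild and 2.86 in moderate libraries.

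**Figure D3:**
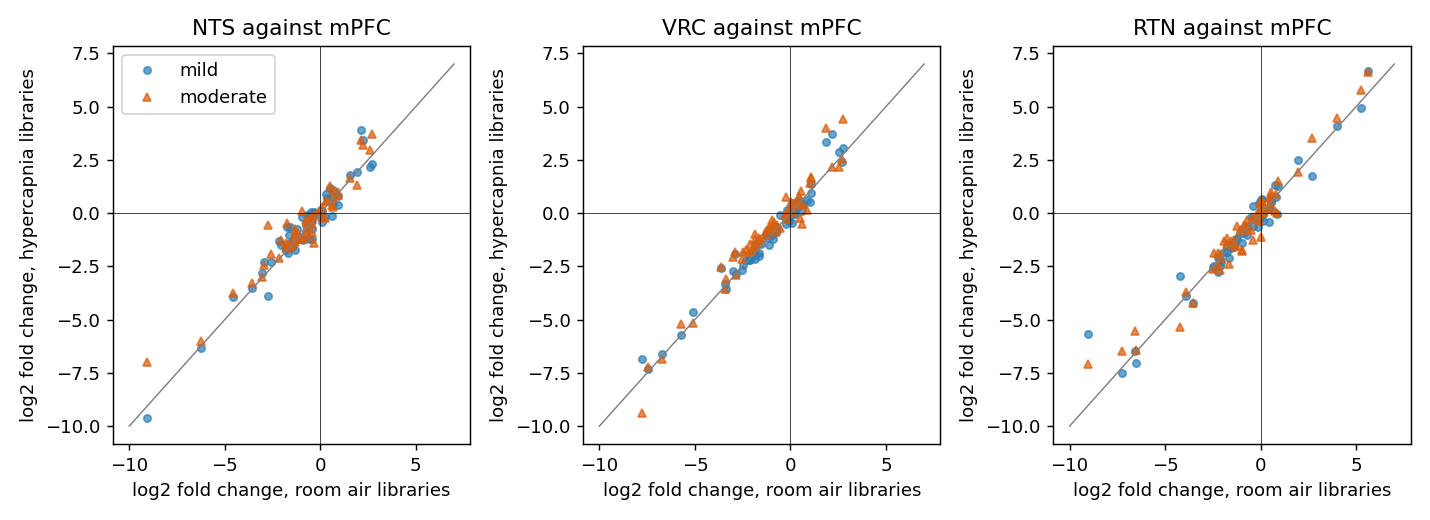
Log2 fold change of each tested channel gene between a brainstem region and mPFC, in room air libraries (x axis) and in mild (circles) or moderate (triangles) hypercapnia libraries (y axis); the line marks equal values. Points follow the line in all 3 panels.

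The study then asked how each level of hypercapnia differed from room air within each region. No channel gene was called by edgeR in any of the 8 comparisons with room air or the 4 of moderate with mild, each over 59 or 60 tested genes. The background was nearly as empty: 0% of all genes were called in 11 comparisons and 0.00649%, 1 gene, in moderate NTS. Limma (with quality weights) gave no call among them either, and DESeq2 gave 1, KCNAB2 in VRC for moderate against mild. On simulated counts of the NTS comparison edgeR called 71.6% of genes changed 2-fold and 35.8% of those changed 1.5-fold. Those counts held many true changes, 67 genes at each of these folds, which eases the adjusted threshold. The real edgeR fits called at most 1 gene, so these shares do not carry over to them. A change near 2-fold could go uncalled: KCNMB4 in moderate VRC, at log2 1.02, had an edgeR adjusted p of 0.71. Smaller shifts would mostly not be detectable with 6 libraries a group.

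At an unadjusted p under 0.05 the channel genes in mPFC numbered 2 of 60 in each of the 3 comparisons (3.33%), where all genes gave 3.45% for mild and 2.10% for moderate against room air, and 4.71% for moderate against mild. In NTS they were 6 of 59 for mild and 4 of 59 for moderate (10.2% and 6.78%), where all genes gave 4.66% and 13.4%. In RTN they were 4 of 60 in each (6.67%), where all genes gave 6.59% and 7.38%. In VRC they were 6 of 59 for mild and 8 of 59 for moderate (10.2% and 13.6%), where all genes gave 6.23% and 5.67%. For moderate against mild the counts were 2 in NTS (3.39%, against 4.02% of all genes), 6 of 60 in RTN (against 10.6%) and 15 in VRC (25.4% of 59, against 15.5%), and 14 of those 15 were higher in moderate. Leaving out a single library moved these counts by over 1.5 times: the 15 in VRC became 7 without mild replicate 2 and 23 without moderate replicate 6. The 8 in VRC for moderate became 3 without moderate replicate 3 or room air replicate 5, and 13 without moderate replicate 6. In NTS the 6 for mild became 2 without room air replicate 1 and 15 without mild replicate 2, and the 4 for moderate became 11 without room air replicate 5. With the myelin genes as a covariate the 15 became 9.

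KCNMB4, the brain BK subunit, was the gene of smallest p in moderate NTS, VRC and RTN. In NTS it was at 6.20, 13.4 and 19.1 CPM in room air (lowest, median, highest), 6.50, 17.6 and 21.5 in mild and 16.5, 22.9 and 26.8 in moderate hypercapnia. In VRC the values were 5.19, 8.79 and 17.1 CPM, then 8.58, 11.1 and 17.0, then 14.3, 17.5 and 31.8. In RTN they were 14.2, 18.8 and 27.5 CPM, then 17.1, 21.5 and 29.8, then 15.8, 33.9 and 54.0. In NTS and VRC all 6 moderate libraries lay above the room air median, and in RTN 5 of 6 did, although the groups overlapped in each region. The log2 fold change of moderate over room air was 0.75 ± 0.26 in NTS, 1.02 ± 0.27 in VRC and 0.71 ± 0.22 in RTN, and none passed alone (edgeR adjusted p = 0.33, 0.71 and 0.56). In mPFC, where its level was highest, it was at 67.8 to 97.2 CPM in room air and 65.9 to 97.9 in moderate hypercapnia (log2 0.13 ± 0.11).

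The mean of the 4 regional differences was tested on all 72 libraries, over 67 channel genes. For moderate hypercapnia KCNMB4 was the only channel gene called, 1 of 67, where 1.75% of all 16372 genes were. Its mean log2 fold change was 0.65 ± 0.12 (edgeR adjusted p = 0.00053), with libraries taken as independent although regions can share animals. With the replicate number as a block, fitted with limma, it was 0.67 (adjusted p = 0.0053). KCNMB4 stayed called in each of 18 edgeR fits that left out a replicate number of a condition in all regions (0.54 to 0.75). The highest adjusted p was 0.0077, reached without moderate replicate 3. Over the 3 brainstem regions alone the mean was 0.83 (edgeR adjusted p = 0.000203). Averaged over those 3 regions by replicate number, KCNMB4 was at 9.36 to 20.9 CPM in room air and 16.8 to 36.8 in moderate, which overlapped. For mild hypercapnia the mean log2 fold change over the 4 regions was 0.22 ± 0.12 (edgeR adjusted p = 0.42). Whether the moderate response differed among regions was tested as well with edgeR and was not called (adjusted p = 1).

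Cell type markers moved beside KCNMB4 in 2 of these regions. For moderate against room air the median log2 fold change of the neuronal markers was 0.34 in NTS, 0.34 in VRC and -0.02 in RTN, that of the motor neuron markers 1.09, 1.03 and 0.16, and that of the myelin genes -0.88, -0.23 and 0.09. With the neuronal markers as a covariate the mean KCNMB4 difference was 0.61 (adjusted p = 0.0012), and with the myelin genes 0.64 (0.0011), both covariates being added after the data had been seen. The pore gene KCNMA1 was not called, nor were the gamma subunits LRRC26 and LRRC55.

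**Figure D4:**
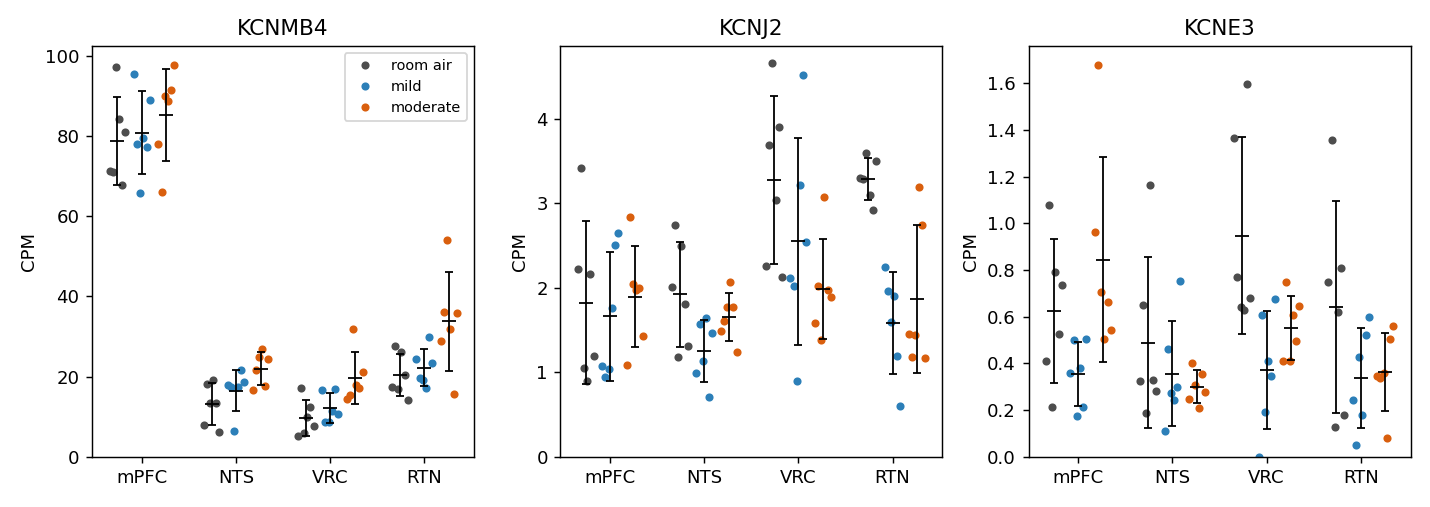
CPM of KCNMB4, KCNJ2 and KCNE3 in each library by region and condition, with the group mean and SD (n = 6). KCNMB4 lies higher in moderate than in room air libraries in NTS, VRC and RTN, with overlapping points; KCNJ2 in RTN has its 6 room air libraries at 2.92 to 3.60 above all 6 mild libraries.

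KCNJ2 (ENSCHIG00000002047, chromosome 19), a strong inward rectifier that clamps the resting potential, was low but tight in RTN in room air: 2.92, 3.29 and 3.60 CPM. The mild libraries were at 0.598, 1.75 and 2.25 CPM, all below the lowest room air library, and the moderate ones at 1.17, 1.45 and 3.20. Groups did not overlap in mild RTN for 1 of 60 channel genes, KCNJ2, where 0.345% of all genes showed this. The log2 fold change was -1.05 ± 0.29 for mild and -0.85 ± 0.29 for moderate RTN (edgeR adjusted p = 0.59 and 0.58), and both comparisons share the room air libraries. Over the 4 regions the mean was -0.53 ± 0.15 for mild (adjusted p = 0.066) and -0.44 ± 0.15 for moderate (0.13). DESeq2 called the mild mean (-0.54, adjusted p = 0.034), as did edgeR over the brainstem regions alone (-0.66, 0.047) and without mild replicate 5 (-0.59, 0.033).

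KCNE3 (ENSCHIG00000004672, chromosome 15), a small subunit that modifies KCNQ and KCNC channels, was the only channel gene called over the mean of the 4 regions in mild hypercapnia, where 1.18% of all genes were. Its levels were low, with group means of 0.489 to 0.947 CPM in room air and 0.337 to 0.371 in mild. The mean log2 fold change was -0.87 ± 0.24 (edgeR adjusted p = 0.049), at the edge of the threshold. The call was lost with limma and the replicate number of each condition as a block (adjusted p = 0.38), a fit that changes the tool as well as the design. With the neuronal covariate edgeR called KCNAB2 (log2 -0.23, adjusted p = 0.030) and not KCNE3 (0.059). The KCNE3 call was lost in edgeR without the low-count filter (adjusted p = 0.054) and over the brainstem regions alone (0.12). It was also lost in 13 of 18 fits that left out a replicate number, namely room air 2, 4 and 5, mild 1, 3, 4 and 5 and each of the 6 moderate numbers, with adjusted p up to 0.20 without room air replicate 2. In mPFC its 6 moderate libraries (0.503 to 1.68 CPM) lay above all 6 mild ones (0.174 to 0.502), the only channel gene so separated there (0.156% of all genes).

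In VRC most channel genes had positive fold changes in moderate hypercapnia, with no single gene called. The median log2 fold change of the 59 genes over room air was 0.23, with 46 positive and 13 negative, while the median of all genes was 0.01. Against mild it was 0.36, again with 46 positive and 13 negative. The 6 genes of the KCNB, KCNC and KCND families were all positive in both comparisons, with medians of 0.34 and 0.53, and the 3 KCNAB genes likewise, with 0.28 and 0.63. The 4 KCNN genes and the 2 KCNT genes were also all positive in both. Of the KCNQ genes only 2 of 4 were positive in each (medians 0.07 and -0.13), and of the KCNH genes 4 of 7. No family was tested as a set. The summed level of the 76 genes in VRC was 473 ± 34.7 RPKM in room air, 444 ± 32.4 in mild and 540 ± 57.6 in moderate hypercapnia (SD, n = 6), and the ranges of room air (414 to 507) and moderate (464 to 611) overlapped. Elsewhere the median of the channel genes was 0.15 for moderate against mild in RTN (44 positive, 16 negative) and 0.12 for moderate against room air in NTS (39 positive, 20 negative), where without NTS room air replicate 1 it was 0.02. Negative medians were found for mild against room air in mPFC (-0.09), RTN (-0.10) and VRC (-0.06), and for moderate against room air in mPFC (-0.06). These comparisons had 20, 23, 23 and 25 genes positive and 40, 37, 36 and 35 negative, in that order. In the remaining comparisons the median was 0.02 to 0.05. Leaving out a single library moved the VRC median for moderate over room air between 0.17 and 0.27. With the myelin genes as a covariate that VRC median was 0.11. Neuronal markers had a median of 0.34 for moderate against room air in VRC and myelin genes of -0.23. Beyond the myelin covariate their part in the result was not tested.

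KCNAB2 (ENSCHIG00000022537, chromosome 16) had the smallest p for moderate against mild in VRC: 58.2, 90.3 and 121 CPM in mild against 87.6, 147 and 196 in moderate. The log2 fold change was 0.70 ± 0.18 (edgeR adjusted p = 0.12). DESeq2 called it (adjusted p = 0.021), and edgeR did without moderate replicate 6 (0.80, 0.024). Against room air, at 91.5, 131 and 136 CPM, mild was lower by its median and moderate higher. KCNC4 followed, at 18.004, 22.9 and 30.4 CPM in mild and 23.9, 33.5 and 43.9 in moderate (log2 0.52 ± 0.17, adjusted p = 0.17). For moderate against room air the genes of small p after KCNMB4 included KCNJ2 (2.13 to 4.66 CPM in room air, 1.38 to 3.08 in moderate) and KCNAB1 (21.8 to 43.6 and 23.3 to 63.5), each with an edgeR adjusted p of 0.86. For mild against room air KCNE3, KCNS3, KCNA3 and KCNAB2 had the smallest p, each with an adjusted p of 0.76. KCNS3 was at 20.8 to 28.5 CPM in room air and 14.6 to 21.5 in mild, with all 6 mild libraries below the room air median.

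**Figure D5:**
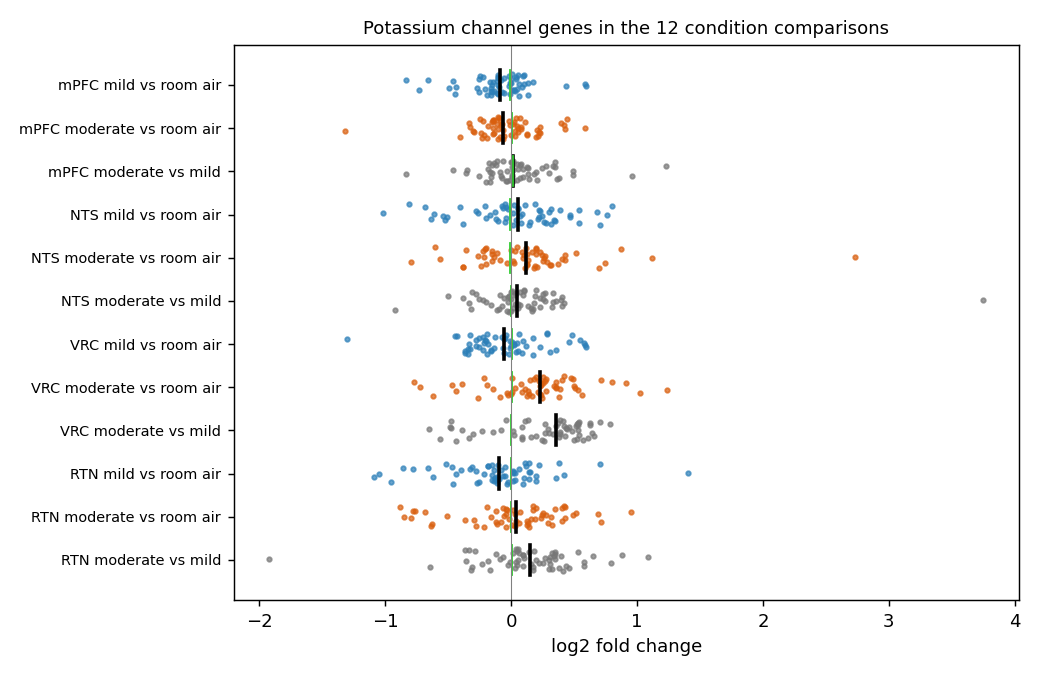
Log2 fold change of each tested channel gene in the 12 condition comparisons (points), with the median of the channel genes (black bar) and of all genes (green bar). The black bar stands right of the green one in VRC for moderate hypercapnia (0.23 over room air, 0.36 over mild), and by less in RTN for moderate over mild (0.15) and in NTS for moderate over room air (0.12). The black bar stands left of the green one for mild over room air in mPFC, VRC and RTN, and for moderate over room air in mPFC.

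In NTS the genes of smallest p were KCNN1, KCNK1, KCNAB3 and KCNJ2 for mild and KCNMB4, KCNK1, KCNK7 and KCNJ13 for moderate hypercapnia. KCNJ2 had a log2 fold change of -0.61 in mild (edgeR adjusted p = 0.85). KCNK1 was at 74.5, 141 and 236 CPM in room air, 74.9, 91.0 and 141 in mild and 78.6, 95.8 and 125 in moderate hypercapnia, so that the lowest values were alike and the upper ones differed. The log2 fold change was -0.54 ± 0.22 for mild and -0.57 ± 0.22 for moderate (edgeR adjusted p = 0.85 and 0.33), against shared room air libraries. Without NTS room air replicate 1 these were -0.33 and -0.35. KCNK1 lay beside a fall of the myelin genes in NTS (median -0.58 in mild and -0.88 in moderate). With the myelin genes as a covariate no channel gene was called in NTS, as without it. Beyond that fit the part of myelin was not tested. KCNN1 was at 5.98 to 8.64 CPM in room air and 3.47 to 6.39 in mild (log2 -0.52 ± 0.18), and KCNAB3 at 6.80 to 17.2 and 5.14 to 11.8. KCNK7, a leak channel family member, was at 0.901 to 2.53 CPM in room air and 0.570 to 1.35 in moderate.

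KCNJ13 (ENSCHIG00000018154, chromosome 3), an inward rectifier of epithelia such as the choroid plexus, had the largest fold change of the 59 channel genes for moderate against room air in NTS, log2 2.73 ± 1.19 (edgeR adjusted p = 0.35). It rested on 1 library: moderate replicate 5 held 74.3 CPM and the other 5 held 0.207 to 5.18. Without it the log2 fold change was 0.16, and without room air replicate 5 it was 4.82. In that library the 5 measured choroid plexus and ependyma markers summed to 1683 CPM, against 16.6 to 545 in the other moderate NTS libraries. In room air replicate 5, the highest of its group with 10.2 CPM of KCNJ13, they summed to 360, against 10.3 to 40.2 in the rest. In mPFC the gene stood at 3.21 to 32.4 CPM in room air, while the same markers summed to only 9.63 to 19.1.

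In RTN the other leading genes were KCNA5, KCNK2 and KCNG1 for mild and KCND3 and KCNF1 for moderate hypercapnia. KCNA5 was at 17.4, 32.6 and 47.7 CPM in room air and 45.6, 51.8 and 67.4 in mild, with all 6 mild libraries above the room air median (log2 0.71 ± 0.31, edgeR adjusted p = 0.75). KCNK2 was at 2.95 to 9.09 CPM and 2.37 to 4.19, and KCNG1 at 9.29 to 63.2 and 11.4 to 20.4. KCND3, an A-type channel, was at 0.449 to 2.06 CPM in room air and 0.486 to 1.22 in moderate, and KCNF1 at 1.64 to 3.98 and 2.03 to 15.5, where 1 library of 15.5 CPM set the upper end. For moderate against mild KCNH3 led, at 0.306 to 1.29 CPM in mild and 0.780 to 2.68 in moderate (log2 1.08 ± 0.37, adjusted p = 0.29).

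In mPFC the genes of smallest p were KCNJ6, KCNMB1, KCNE3 and KCNK10 for mild and KCNK16, KCNN2, KCNT1 and KCNMA1 for moderate hypercapnia, each with an edgeR adjusted p of 1. KCNJ6 was at 2.05, 2.54 and 3.40 CPM in room air and 2.39, 3.69 and 4.52 in mild. KCNMB1, a BK beta subunit best known from smooth muscle, was at 0.843 to 5.35 CPM in room air, 0.850 to 2.04 in mild and 1.93 to 4.01 in moderate. Its log2 fold change was -0.73 ± 0.34 for mild against room air and 0.96 ± 0.34 for moderate against mild (adjusted p = 0.95 for the second). Without mPFC room air replicate 2 the first was -0.36. Pericyte and smooth muscle markers moved beside it, with median log2 fold changes of -0.46 and 0.43 in those comparisons, and their part was not tested. KCNN2, a small-conductance calcium-activated channel, was at 46.3, 50.4 and 59.6 CPM in room air and 37.8, 45.0 and 48.8 in moderate (log2 -0.21 ± 0.10).

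Whether a response differed among the 4 regions gave no call among the 67 channel genes for mild or for moderate hypercapnia, nor among all genes (0% in each). At an unadjusted p under 0.05 edgeR gave 2 channel genes for mild, KCNK1 and KCNA1, and 3 for moderate, KCNA4, KCNA1 and KCNK1 (adjusted p = 1 for each), where 2.40% and 3.83% of all genes passed, and DESeq2 called none after adjustment. Of the 22 partner genes tested none was called within a region. Over the mean of the regions ABCC9, the regulatory subunit of ATP-sensitive channels in smooth muscle and a marker in the pericyte list, fell by 0.60 ± 0.13 on the log2 scale in moderate hypercapnia (adjusted p = 0.0034).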

How the data were processed

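RNA was extracted with a Direct-Zol kit and libraries were made with the SMARTer Universal Low Input kit, per the labels' protocols. FastQC, Trimmomatic, STAR, featureCounts and edgeR are named in the submitters' processing notes; no version or genome build is given in the sources used here. The authors deposited raw read counts per gene, RPKM values per gene and the gene length in bases used for them. Counts were used for all tests and for CPM (counts scaled to library size). The deposited RPKM were used for levels only, between genes and, for a gene or a sum of genes, between regions and conditions. The potassium channel genes, the gene lists and the tests were chosen with earlier results of these data known.

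Tests used edgeR 4.0.16 in R 4.3.3: quasi-likelihood fits with TMM scaling and filterByExpr (minimum count 10), 1 fit per condition for regions (24 libraries), 1 per region for conditions (18 libraries), and 1 over all 72 libraries for means over regions and interactions. P-values were adjusted by Benjamini-Hochberg over all genes tested. DESeq2 1.42.0, limma 3.58.1 with quality weights, other scaling, no low-count filter, a replicate block, a myelin covariate and leaving out each library were alternatives. The scripts were tested on simulated data. No duplicated library was found. No sequences are printed. A few channel genes counted in the totals are not reported here by name.

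Genes were named by rule. For conditions these were the members called, otherwise the 4 of smallest p against room air and the 2 for moderate against mild. For regions they were the 4 largest called differences per direction with at least 1 RPKM in the higher region, and the best expressed 3 members of each family by level. Others were named after their values were seen.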

Additional observations from a re-analysis of the deposited data

Results flagged for a closer look

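In 13 cases among groups of 6 libraries, 1 library stood apart from the other 5 by more than Dixon's 95% critical value for its gap. By chance alone about 5% of groups pass it. The number of groups looked at is not given here, so the 13 cases cannot be set against that share. Values are in CPM.

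KCNJ13 stood apart in 2 NTS groups. Moderate replicate 5 held 74.3, against 0.207 to 5.18 in the others, and room air replicate 5 held 10.2, against 0.0831 to 1.54. KCNQ5 in NTS mild replicate 1 was at 4.95, against 0.784 to 1.82. KCNG4 in NTS room air replicate 5 was at 1.68, against 0.0466 to 0.453.

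KCNF1 stood apart in 3 groups: RTN moderate replicate 5 at 15.5 (others 2.03 to 4.13), RTN room air replicate 6 at 3.98 (1.64 to 2.52) and VRC room air replicate 2 at 6.60 (3.69 to 4.66). In VRC room air replicate 6, KCNV1 was at 3.26 (0.751 to 1.67) and KCNH6 at 3.12 (0 to 1.09). KCNJ4 in VRC room air replicate 2 was at 0.055, from 1 read, with 0 in the others. KCNA5 in RTN mild replicate 5 was at 67.4 (45.6 to 53.4). In mPFC in room air, KCNK16 was at 3.85 in replicate 2 (0.316 to 1.40) and KCNG4 at 0.51 in replicate 6 (0 to 0.0655).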

How the results depend on the processing

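Of the counts of channel genes called, 198 of those recomputed under other settings stayed within 1.5 times the reported count and 4 did not, and no named gene changed direction. For moderate against mild in VRC, DESeq2 called 1 gene in place of 0, and leaving out single libraries gave 0 to 1. For the mean over regions in mild hypercapnia, DESeq2 called 2, and no low-count filter and the replicate block each 0, in place of 1, and leave-outs gave 0 to 1. The neuronal covariate and the brainstem-only mean each called 1, but another gene than KCNE3. These were KCNAB2 (-0.23, edgeR adjusted p = 0.030) and KCNJ2 (-0.66, 0.047). For moderate hypercapnia, leave-outs gave 1 to 2, the second being KCNK1 without room air replicate 5 (-0.24, edgeR adjusted p = 0.044). The cause was not tested.

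Same-numbered libraries of a region showed no pairing between conditions (22 of 72 pairs correlated over 0.1). Between regions of a condition 92 of 108 pairs did (median r 0.23), so these libraries tended to deviate together, though not in every pair. With the replicate number as a block, 55 genes were called over the 4 regions in room air, 51 for NTS, 48 for VRC and 43 for RTN against mPFC, 35 for NTS against VRC, 23 for RTN against VRC and 29 for RTN against NTS. The blocked fits called 0 in the 12 comparisons of conditions. For the means over regions the block was fitted with limma, which changed the tool too, and gave KCNMB4 a moderate mean of 0.67 (adjusted p = 0.0053) and KCNE3 a mild mean of -0.87 (0.38). The leave-outs of a replicate number in all regions, the neuronal covariate, the myelin covariate for the means and the brainstem-only means were chosen after seeing the data. The part of depth in the calls was not tested.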
